A study of Mus musculus with 44 samples.

Results

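Hox genes encode homeodomain transcription factors that lie side by side in 4 chromosomal clusters. All 39 protein-coding mouse genes named Hoxa, Hoxb, Hoxc or Hoxd with a number were taken, of 21887 protein-coding genes in the gene table used here. HoxA holds 11 of them (chr6:52155367-52260880), HoxB 10 (chr11:96194316-96368254), HoxC 9 (chr15:102921131-103036856) and HoxD 9 (chr2:74668225-74765142), in build mm10. Peaks were taken where they overlapped a cluster span extended by 5 kb on each side, a total of 532.097 kb. This gave 23 peaks, of which 16 were H3K27ac peaks and 7 were ATAC-seq peaks.

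The tissue came from adult mice with the Polg(D181A) mutation, which alters the mitochondrial DNA polymerase, and from wild-type (WT) mice. As background that is not in the labels, the mutant protein is made from a transgene driven by the Camk2a promoter, which is active in forebrain neurons. H3K27ac, a mark of active promoters and enhancers, was profiled in 4 regions: the nucleus accumbens (NAC), the caudate putamen (CP), the cortex (COR) and the paraventricular thalamic nucleus (PVT). Open chromatin was profiled by ATAC-seq in PVT. There were 2 Polg and 2 WT libraries per table, from nuclei sorted for the neuronal protein NeuN. RNA was counted in 20 PVT libraries. The RNA groups, of 4 libraries each, were depressive COX-negative, depressive COX-positive, euthymic COX-negative and euthymic COX-positive Polg, and euthymic COX-positive WT. COX is cytochrome c oxidase, a respiratory chain enzyme, and the classes are given by its staining. The strain field reads C57BL/6 for RNA and H3K27ac samples. For the ATAC-seq samples it reads C57BL/9 and C57BL/10 for Polg and C57BL/7 and C57BL/8 for WT. Nothing in the labels ties a library to its own animal, and each p-value thus reflects library-to-library spread, which may be technical. In the peak tables, the second WT libraries of CP and NAC stood apart, with a count of 0 at 80.8% and 69.6% of peaks. In the other CP and NAC libraries 19.9% to 52.5% of peaks were at 0.

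Hox genes pattern the body axis from the hindbrain backwards, and the order of genes along a cluster follows the order of their expression domains along that axis. Paralog groups 1 to 4 act in the hindbrain, the middle groups along the cervical and thoracic levels, and groups 9 to 13 in the posterior trunk, limbs and genitalia. The telencephalon and thalamus arise in front of these domains. Where Hox genes are silent, their clusters are known to be covered by Polycomb complexes, which place H3K27me3, a mark on the same lysine that cannot carry acetylation at the same time. H3K27me3 was not among the assays used here.

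In adult forebrain neurons the clusters held few acetylation peaks. The start windows of Hox genes, each of 300 bases with 250 before and 50 after the annotated start, were available for 22 of the 39 genes, from RefSeq (mm10). Of these 22 genes, 1 had an H3K27ac peak on a start window in any region and 2 had an ATAC-seq peak. Their windows are printed in lower case, 5′ to 3′ on the gene's own strand, with the bases that fall under the called peak in capitals. The Hoxa5 window has no capitals because no table called a peak there, and it is shown because its CpG ratio (CpG pairs observed over those expected from its C and G content) was the highest of the Hox windows, at 1.02.
Hoxd1, chr2:74762730-74763029, plus strand, NAC H3K27ac peak over the last 52 bases: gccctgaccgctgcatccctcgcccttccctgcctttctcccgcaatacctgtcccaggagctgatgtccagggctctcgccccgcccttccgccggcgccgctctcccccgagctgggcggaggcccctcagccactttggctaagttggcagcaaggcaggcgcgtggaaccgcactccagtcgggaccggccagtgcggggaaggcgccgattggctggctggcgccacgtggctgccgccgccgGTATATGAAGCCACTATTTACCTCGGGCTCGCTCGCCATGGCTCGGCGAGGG
Hoxd13, chr2:74667975-74668274, plus strand, PVT ATAC-seq peak over the last 36 bases: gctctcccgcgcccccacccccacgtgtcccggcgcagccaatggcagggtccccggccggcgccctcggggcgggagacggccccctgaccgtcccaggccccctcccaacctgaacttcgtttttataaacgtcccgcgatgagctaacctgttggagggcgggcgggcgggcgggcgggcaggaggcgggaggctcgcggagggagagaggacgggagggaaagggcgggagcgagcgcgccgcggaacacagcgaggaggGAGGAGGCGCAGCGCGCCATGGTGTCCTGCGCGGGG
Hoxd11, chr2:74682073-74682372, plus strand, PVT ATAC-seq peak over 261 bases: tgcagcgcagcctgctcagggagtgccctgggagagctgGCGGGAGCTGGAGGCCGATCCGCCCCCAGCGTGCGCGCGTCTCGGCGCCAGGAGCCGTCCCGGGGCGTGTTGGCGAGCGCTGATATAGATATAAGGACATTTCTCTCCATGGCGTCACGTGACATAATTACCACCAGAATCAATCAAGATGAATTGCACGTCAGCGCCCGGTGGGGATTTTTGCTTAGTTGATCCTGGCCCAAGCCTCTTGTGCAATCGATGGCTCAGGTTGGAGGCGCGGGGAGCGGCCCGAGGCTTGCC
Hoxa5, chr6:52204538-52204837, minus strand, no peak: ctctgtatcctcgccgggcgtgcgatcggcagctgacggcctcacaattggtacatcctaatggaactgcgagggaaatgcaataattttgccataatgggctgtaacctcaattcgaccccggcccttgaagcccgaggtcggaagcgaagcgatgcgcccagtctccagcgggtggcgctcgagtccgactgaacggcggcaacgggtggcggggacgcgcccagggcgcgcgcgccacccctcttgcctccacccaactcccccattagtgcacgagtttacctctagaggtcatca
Hoxd1 has a role in sensory neuron circuits in mice, Hoxd13 and Hoxd11 act in the limbs and posterior trunk, and Hoxa5 in the cervical region. The window of Hoxd11 is the second of its 2 annotated starts. The 3 windows under a peak all lie in the HoxD cluster. Most of the available windows belong to HoxA and HoxD genes. In HoxB only Hoxb1, Hoxb4 and Hoxb8 had a window, and in HoxC only Hoxc4, so the clusters cannot be compared evenly.

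Called peaks were sparse in the clusters in every table. In PVT, 1 of 123818 H3K27ac peaks overlapped a span, or 1.88 peaks per Mb of span against 45.5 per Mb of genome. COR had 7 of 141298 H3K27ac peaks, or 13.2 per Mb of span against 51.9 per Mb of genome. CP had 5 of 127817, or 9.40 per Mb of span against 47.0 per Mb of genome. NAC had 3 of 132740, or 5.64 per Mb of span against 48.8 per Mb of genome. Of the ATAC-seq peaks, 7 of 89792 overlapped a span, or 13.2 per Mb of span against 33.0 per Mb of genome. ATAC-seq peaks covered 0.489% of the spans and 1.21% of the genome. The 200 kb on each side of each cluster, 1600 kb in all, held 31.9 peaks per Mb in PVT, 40 in COR, 50.6 in CP and 46.3 in NAC for H3K27ac, and 26.9 per Mb for ATAC-seq. Pooled over the 4 clusters, the flanks were denser than the spans in every table. Single clusters differed: ATAC-seq peaks were denser inside HoxA (17.3 per Mb, against 10 and 5 in its flanks) and inside HoxD (28.1 per Mb, against 20 in each flank). CP H3K27ac peaks in HoxD had 37.4 per Mb, against 25 and 70 in its flanks. These densities are a description and were not tested.

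**Figure D1:**
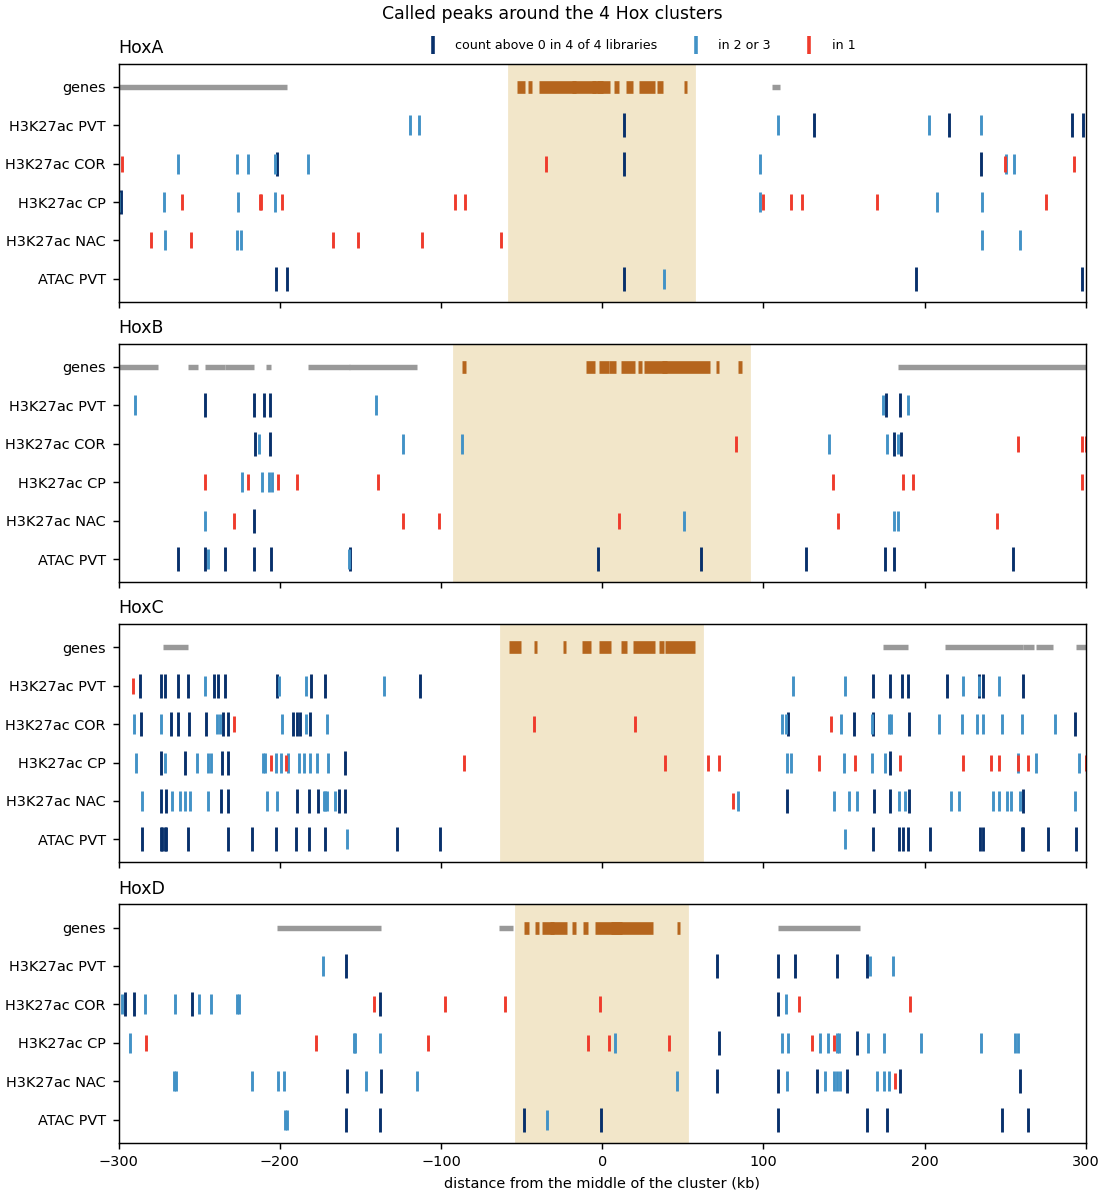
Called peaks within 300 kb of the middle of each Hox cluster, by table (x axis, distance from the middle of the cluster in kb). Shaded bands are the cluster spans with 5 kb on each side, brown boxes are Hox genes, grey bars are other protein-coding genes, and each tick is 1 peak, coloured by how many of its 4 libraries had a count above 0. The PVT H3K27ac row has 1 tick inside the bands, in HoxA, and the flanks hold 31.9 peaks per Mb.

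The peaks were spread unevenly over clusters and regions. HoxA held 1 H3K27ac peak in PVT, 2 in COR and 0 in CP and NAC. HoxB held 2 in COR and 2 in NAC, and 0 in PVT and CP. HoxC held 2 in COR and 1 in CP, and HoxD held 1 in COR, 4 in CP and 1 in NAC. ATAC-seq peaks were 2 in HoxA, 2 in HoxB, 0 in HoxC and 3 in HoxD. Outside the spans, the nearest peaks with a count in all 4 libraries lay 22.5 kb beyond the Hoxd1 side of HoxD in PVT, 23.2 kb in CP and 20.4 kb in NAC, and 60.4 kb away in COR, where the peak lay at Mtx2, which encodes a protein of the mitochondrial outer membrane. On the other side of HoxD the nearest such peak lay at Lnpk, an endoplasmic reticulum gene, 110.1 kb away in PVT, 88.8 kb in COR and 88.2 kb in NAC. In CP it lay 926.8 kb away, at Chn1. CP peaks with a count in 3 libraries did lie at Lnpk, and the 200 kb flank on that side held 5 CP peaks. A count in all 4 libraries was found for 69.7% of all peaks in PVT, 37.3% in COR, 21.4% in NAC and 8.97% in CP. The distances thus cannot be compared evenly between regions.

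Most H3K27ac peaks in the clusters rested on few libraries. Of the 16, 10 had a count in 1 library alone and 2 had a count in all 4. In COR, 5 of 7 Hox peaks had a count in a single library, against 10.5% of all COR peaks. In CP it was 4 of 5, against 34.0% of all peaks, and in NAC it was 1 of 3, against 15.3%. Counts in the H3K27ac tables were mostly either 0 or large, and what a 0 stands for (no reads, or a site not counted in that library) is not given in the sources used here. Of all values, 10.3% in PVT, 26.6% in COR, 48.1% in CP and 34.5% in NAC were 0, while values of 1 to 9 made up 1.36%, 2.39%, 2.43% and 2.81%.

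The 2 H3K27ac peaks with a count in every library were at the same place, between Hoxa7 and Hoxa9, in PVT (chr6:52221379-52221695) and COR (chr6:52221063-52221808). Hoxa7 and Hoxa9 pattern the trunk, and the protein CTCF is known to bind between them in mouse cells, though it was not measured here. The PVT peak held 1.92 and 3.85 CPM in the Polg libraries and 2.96 and 2.17 CPM in the WT libraries. CPM are counts scaled to TMM-adjusted library size. The groups overlapped. The log2 difference, Polg minus WT, was 0.17 (SE 1.19, edgeR adjusted p = 0.976). An ATAC-seq peak lay at the same place in PVT (chr6:52221453-52221894), with 5.42 and 4.11 CPM in Polg and 3.75 and 8.15 CPM in WT. CP and NAC had no peak there. It was the only ATAC-seq Hox peak of 7 that overlapped a PVT H3K27ac peak, against 42.6% of all ATAC-seq peaks.

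In COR the Hoxa7 to Hoxa9 peak held 0.539 and 0.569 CPM in the Polg libraries and 1.70 and 16.2 CPM in the WT libraries. Both Polg values lay below both WT values, as at the Hoxb13 peak, which made 2 of 2 tested COR Hox peaks. This held for 19.7% of all tested COR peaks. The log2 difference was −4.01 (SE 3.12, edgeR adjusted p = 0.9998), and did not pass. Without the second WT library it was −1.604.

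The NAC peak on the Hoxd1 start (chr2:74762978-74763385) held 0 and 3.43 CPM in the Polg libraries and 3.21 and 27.1 CPM in the WT libraries. The WT value of 27.1 CPM comes from the library with 69.6% of peaks at 0. The groups overlapped, and the log2 difference was −3.14 (SE 3.44, edgeR adjusted p = 0.99999). Without that library it was −1.38. The other NAC peaks lay in Hoxb3, with 7.19 and 0 CPM in Polg and 1.79 and 0 CPM in WT, and between Hoxb7 and Hoxb6, with 7.43 CPM in 1 Polg library and 0 in the other 3 libraries. Over all tested NAC peaks the median log2 difference was 1.09, and over all tested CP peaks 0.66, against −0.0029 in PVT and 0.10 in COR. The second WT libraries of NAC and CP had 69.6% and 80.8% of peaks at 0. The part of these libraries in the 2 medians was not tested.

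The remaining COR and CP peaks had counts in 1 or 2 libraries. In COR the Hoxb13 peak had 0 and 0 CPM in Polg and 4.16 and 1.38 CPM in WT. Peaks beside Hoxb1, in Hoxc12 and in Hoxd3 were at 0 in both Polg libraries and had 5.21, 4.03 and 11.1 CPM in the first WT library alone, and a Hoxc6 peak had 18.2 CPM in the second WT library alone. A Hoxa3 peak had 11.98 CPM in the first Polg library and was at 0 in the other Polg and both WT libraries. In CP a peak shared by Hoxd3 and Hoxd4 had 2.08 and 0 CPM in Polg and 0 and 41.6 CPM in WT, where the 41.6 CPM come from the library with 80.8% of peaks at 0. Peaks in Hoxd8 and in the non-coding gene Haglr had 11.4 and 10.005 CPM in the second Polg library alone. Peaks in Hoxc4 and Hoxd3 had 2.03 and 9.55 CPM in the first WT library alone. Among these only the Hoxb13 peak and the peak shared by Hoxd3 and Hoxd4 were tested, and neither passed in edgeR.

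In the ATAC-seq table, the peak at the start of Hoxd13 (chr2:74668239-74668785) held 3.36 and 4.993 CPM in Polg and 4.996 and 6.67 CPM in WT. In TMM-scaled CPM its groups were split only between 4.993 CPM in Polg and 4.996 CPM in WT. In CPM from total counts without TMM they overlapped, with 2.98 and 5.597 CPM in Polg and 5.35 and 6.14 CPM in WT. The log2 difference of −0.45 (SE 0.699) did not pass (edgeR adjusted p = 0.892). The peak on the second Hoxd11 start (chr2:74682112-74682434) held 7.23 and 1.997 CPM in Polg and 0.375 and 0 CPM in WT. Both Polg libraries lay above both WT libraries, which held for 19.96% of all tested ATAC-seq peaks, while 20.8% lay the other way. With 46 counts in Polg and 3 in WT, the ratio of scaled counts was 12.7 (95% exact interval 4.09 to 63.9, counting error only). Such ratios were computed only for peaks with 1 to 3 WT counts in all, a choice that favours high ratios. They pool the 2 libraries of a genotype, so their intervals leave out library-to-library spread. The fitted log2 difference was 4.08, and 2.97 to 7.56 when 1 library was left out. It did not pass in edgeR (unadjusted p = 0.0138, adjusted p = 0.798). The peak beside Hoxa11 (chr6:52246593-52246915), inside the antisense gene Hoxa11os, held 5.17 and 2.11 CPM in Polg and 0 and 0.3704 CPM in WT, with no overlap. With 39 counts in Polg and 1 in WT, the ratio was 32.3 (95% exact interval 5.47 to 1309, counting error only). The fitted log2 difference was 4.74, and 3.17 to 7.65 when 1 library was left out. It did not pass in edgeR (unadjusted p = 0.0163, adjusted p = 0.798). The peak inside Hoxd3 and its antisense gene Hoxd3os1 (chr2:74715795-74716117) held 14.2 and 1.997 CPM in Polg and 1.998 and 2.22 CPM in WT, with an edgeR unadjusted p of 0.0481 and an adjusted p of 0.798. Its log2 difference was 1.902, and −0.068 without the first Polg library. The Hoxb3 peak held 4.65 and 2.33 CPM in Polg and 1.499 and 0.3704 CPM in WT, and the peak beside Hoxb8 held 1.29 and 4.66 CPM in Polg and 0.874 and 0.741 CPM in WT. At both, the Polg libraries lay above the WT libraries. Of the 6 tested ATAC-seq Hox peaks, 3 thus lay higher in Polg without overlap. The Hoxd13 peak lay lower without overlap in TMM-scaled CPM, but not in CPM from total counts.

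**Figure D2:**
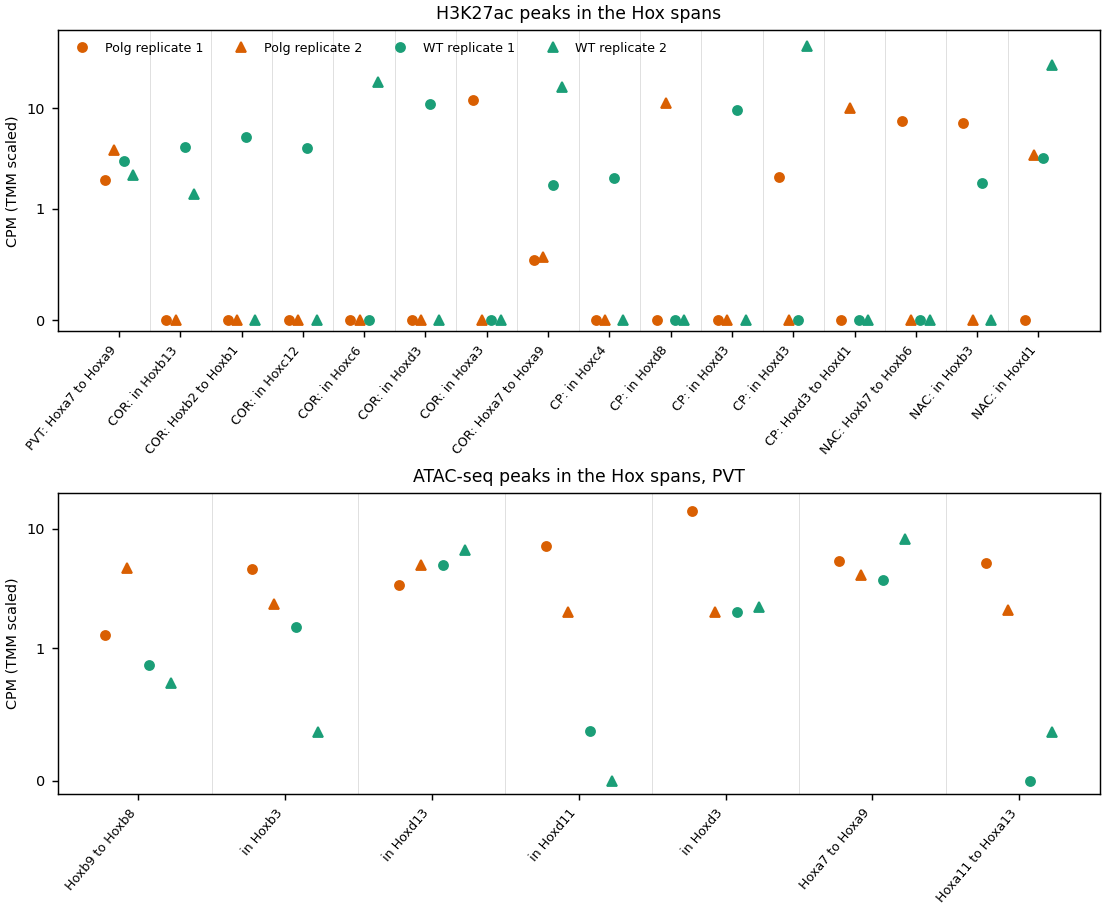
CPM (y axis, symmetric log scale, linear below 1) of each of the 16 H3K27ac peaks (upper panel) and 7 ATAC-seq peaks (lower panel) in the Hox spans. Each column is 1 peak, orange points are the 2 Polg libraries and green points are the 2 WT libraries, and most H3K27ac peaks outside HoxA sit at 0 in all but 1 library. In the lower panel the Polg libraries lie above the WT libraries at 4 of the 7 peaks (Hoxb8, Hoxb3, Hoxd11 and Hoxa11). The Hoxb8 peak was not tested, and 19.96% of all tested ATAC-seq peaks lie this way.

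No Hox peak passed the edgeR quasi-likelihood test at an adjusted p under 0.05 in any table. The background share of called peaks over all tested peaks was 0% in PVT, 0% in COR, 0% in CP and 0.00476% in NAC for H3K27ac, and 0.00114% for ATAC-seq. edgeR tested 6 of the 16 H3K27ac peaks and 6 of the 7 ATAC-seq peaks. Its filter left out the 10 H3K27ac peaks with a count in 1 library alone, although those counts ranged from 124 to 1974. It also left out the ATAC-seq peak beside Hoxb8, with 5 and 42 counts in Polg and 7 and 2 in WT. At an unadjusted p under 0.05, edgeR passed 0 of the tested H3K27ac Hox peaks and 3 of the 6 ATAC-seq ones, against 8.09%, 9.29%, 6.69% and 1.6% of all peaks in PVT, COR, CP and NAC and 6.13% of all ATAC-seq peaks. DESeq2 called 6 of the 7 COR Hox peaks, where it called 26.7% of all COR peaks, and 0 in PVT, CP, NAC and ATAC-seq, where it called 10.7%, 33.4%, 3.0% and 0.00334%. Of the 6 COR peaks called by DESeq2, all but the Hoxb13 peak had a count in 1 library alone.

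Few starts of Hox genes lay under a peak. These shares are a description with no test. H3K27ac peaks overlapped a start window of 0 of 22 Hox genes in PVT, 0 in COR, 0 in CP and 1 in NAC. Over 17492 protein-coding genes with a window the shares were 42.6%, 39.3%, 23.7% and 39.7%. ATAC-seq peaks did so for 2 of 22 Hox genes, or 9.09%, against 52.4%. Regulators of the hindbrain and spinal cord had 2 of 15 genes with a window under a peak in PVT, 3 in COR, 3 in CP, 2 in NAC and 3 for ATAC-seq. Forebrain regulators had 4 of 14, 4, 5, 4 and 3. Polycomb genes had 19 of 25, 17, 13, 18 and 21, and the TALE cofactors of Hox proteins, which bind DNA with them, had 2 of 5, 3, 3, 4 and 2. Neuron markers had 5 of 5 in PVT, 5 in COR, 2 in CP, 4 in NAC and 4 for ATAC-seq, and the cortical projection neuron list had 5 of 5 in COR and 0 in PVT.

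Averaged over the windows of a gene, the CpG ratio had a median of 0.62 over the 22 Hox genes, against 0.56 over all protein-coding genes. By this average, 11 of the 22 Hox genes had a ratio of at least 0.6. Of the 8253 such genes among all protein-coding genes, 64.1% had a PVT H3K27ac peak, 59.0% a COR, 35.8% a CP, 61.0% a NAC and 84.3% an ATAC-seq peak. For the 11 Hox genes the numbers were 0, 0, 0, 1 and 1. Hoxd11 was not among them, since its 2 windows have 0.875 and 0.257, although the window under the ATAC-seq peak is the one at 0.875. The motif TGATNNAT, on either strand, was found in a window of 4 of 22 Hox genes, or 18.2%, against 8.72% of all protein-coding genes with a window. TATAAA was found in 4 of 22 and 14.8%.

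**Figure D3:**
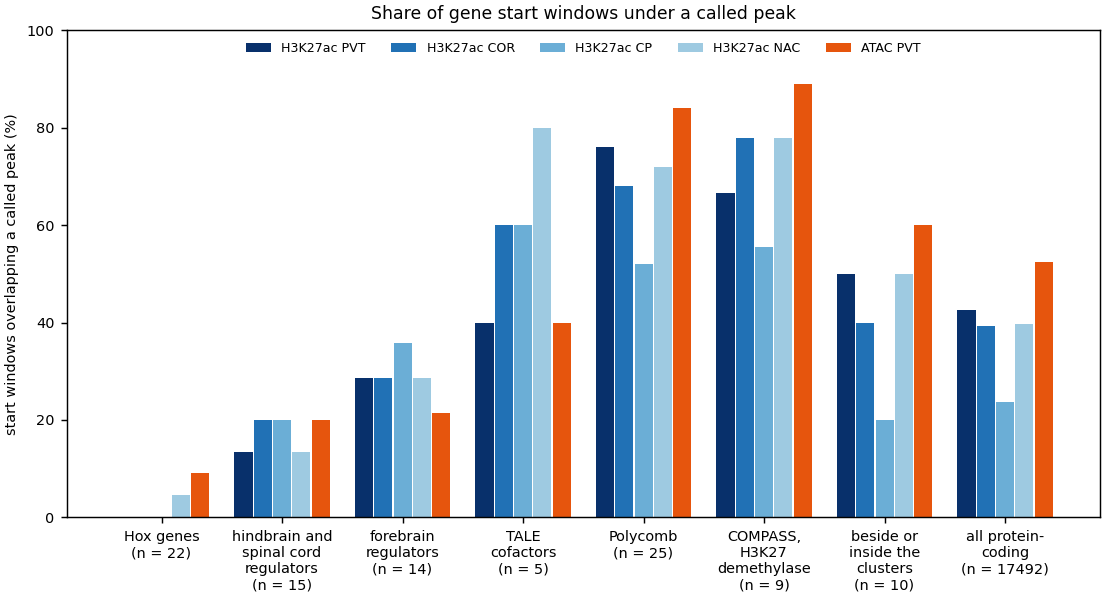
Share of genes with a start window under a called peak (y axis, percent, starting at 0), by gene list (x axis, with the number of genes with a window) and table (colours). Hox genes have 0% in PVT, COR and CP, 4.55% in NAC and 9.09% in ATAC-seq, and all protein-coding genes have 23.7% to 52.4%.

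Gene bodies were also compared. Of 39 Hox genes, 0 had a PVT H3K27ac peak within 1 kb of the span, 5 a COR, 5 a CP, 2 a NAC and 6 an ATAC-seq peak. Over all protein-coding genes the shares were 67.2%, 67.8%, 62.4%, 65.7% and 70.8%. No Hox gene was among the 5029 genes with a peak within 1 kb of a gene end in all 4 H3K27ac tables, so Hox levels were not tested between regions.

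RNA of Hox genes was low in most libraries of the PVT. Of 780 gene by library values, 61.4% were under 10 counts and 12.8% were 0, against 31.0% and 8.91% over all protein-coding genes. The median over libraries of CPM per kb of gene span had a median of 0.0240 over Hox genes and 0.0502 over all protein-coding genes, and 33 of 39 Hox genes lay below the median of all. Paralog groups 1 to 4 had a median of 0.0393, groups 5 to 8 of 0.0226 and groups 9 to 13 of 0.0216 CPM per kb. Regulators of the hindbrain and spinal cord had 0.0128 and those of the forebrain 0.0339. Spans are genomic and include introns, and Hoxa3 (44.009 kb), Hoxb3 (40.83 kb) and Hoxd3 (36.279 kb) enclose other Hox genes, so their per-kb values are set against a longer span.

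The highest median level of a Hox gene was that of Hoxa3, at 4.25 CPM, and the highest median per kb was that of Hoxc5, at 1.02 CPM per kb. Hoxa3, which patterns the branchial region, had 0.924, 1.698, 54.02 and 39.3 CPM in depressive COX-negative libraries and 41.7, 31.2, 2.07 and 10.8 CPM in depressive COX-positive libraries. It had 3.14, 2.51, 4.404 and 2.16 CPM in euthymic COX-negative libraries and 3.93, 7.86, 1.81 and 80.96 CPM in euthymic COX-positive Polg libraries, against 4.104, 2.15, 9.09 and 4.601 CPM in WT libraries. Levels above 10 CPM occurred in both depressive groups and in euthymic COX-positive Polg, and low values occurred in every group. Hoxc5, a trunk patterning gene, had 0.924, 0.981, 1.77 and 1.07 CPM in depressive COX-negative libraries and 3.15, 0.741, 1.23 and 17.04 CPM in depressive COX-positive libraries. It had 3.84, 144.7, 7.99 and 1.57 CPM in euthymic COX-negative libraries and 145.6, 4.66, 1.33 and 22.9 CPM in euthymic COX-positive Polg libraries, against 0.715, 4.07, 612.3 and 7.22 CPM in WT libraries. Single libraries of both euthymic Polg groups and of WT stood above 100 CPM, and the groups overlapped.

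Further genes of the 4 clusters were low in most libraries. Hoxa4, which acts in the hindbrain and neck, had 0.132, 0.0239, 0.215 and 0.07901 CPM in depressive COX-negative libraries and 3.696, 0.0181, 0.131 and 1.06 CPM in depressive COX-positive libraries. It had 0.108, 0.229, 0.271 and 0.298 CPM in euthymic COX-negative libraries and 1.295, 0, 0.0717 and 0.0657 CPM in euthymic COX-positive Polg libraries, against 0.0461, 0.0946, 0.213 and 0.356 CPM in WT libraries. Its highest value was in a depressive COX-positive library. Hoxb2, which acts in the rhombomeres, had 0.231, 0.0957, 0.241 and 0.132 CPM in depressive COX-negative libraries and 0.512, 0.0362, 0.118 and 0.0217 CPM in depressive COX-positive libraries. It had 0.298, 0.194, 0.362 and 0.149 CPM in euthymic COX-negative libraries and 0.0294, 0.7397, 0.251 and 0.0876 CPM in euthymic COX-positive Polg libraries, against 0.115, 0.347, 0.426 and 0.281 CPM in WT libraries. No library stood far above the rest. Hoxb1, which marks a single rhombomere in the embryo, had 43.1, 0.0957, 0.268 and 0.0658 CPM in depressive COX-negative libraries and 0.2196, 0.0723, 0.249 and 0.0108 CPM in depressive COX-positive libraries. It had 0.162, 0.265, 0.121 and 0.373 CPM in euthymic COX-negative libraries and 0.0442, 0.0116, 0.233 and 0.0876 CPM in euthymic COX-positive Polg libraries, against 0.0576, 0.473, 0.426 and 0.0375 CPM in WT libraries. A single depressive COX-negative library was high and the rest were below 1 CPM. Hoxb6, a trunk patterning gene, had 0.198, 0.167, 0.295 and 0.0922 CPM in depressive COX-negative libraries and 0.183, 0.0542, 0.459 and 0.0542 CPM in depressive COX-positive libraries. It had 1.03, 0.3001, 0.664 and 0.224 CPM in euthymic COX-negative libraries and 53.95, 0.0116, 0.646 and 0.219 CPM in euthymic COX-positive Polg libraries, against 4.39, 2.24, 0.426 and 1.199 CPM in WT libraries. A single euthymic COX-positive Polg library was high, and 3 of 4 WT libraries were above 1 CPM. Hoxc4, which acts at the cervical level, had 0.264, 0.287, 21.6 and 0.369 CPM in depressive COX-negative libraries and 0.293, 0.253, 0.486 and 5.16 CPM in depressive COX-positive libraries. It had 0.568, 1.36, 0.452 and 0.522 CPM in euthymic COX-negative libraries and 5.93, 6.403, 0.6098 and 0.504 CPM in euthymic COX-positive Polg libraries, against 0.404, 0.473, 3.41 and 2.73 CPM in WT libraries. Its highest value was in a depressive COX-negative library. Hoxd8, a trunk patterning gene, had 0.3298, 0.239, 0.456 and 0.263 CPM in depressive COX-negative libraries and 0.878, 0.0362, 11.8 and 0.0542 CPM in depressive COX-positive libraries. It had 0.189, 0.0883, 0.965 and 3.13 CPM in euthymic COX-negative libraries and 0.0736, 1.17, 14.7 and 1.01 CPM in euthymic COX-positive Polg libraries, against 0.0692, 0.315, 0.426 and 0.141 CPM in WT libraries. Its 2 highest libraries lay in the COX-positive groups of either state. Hoxd4, which acts in the hindbrain and neck, had 0.264, 0.144, 190.1 and 0.119 CPM in depressive COX-negative libraries and 0.2196, 0.163, 1.19 and 0.0758 CPM in depressive COX-positive libraries. It had 0.406, 0.459, 0.362 and 2.16 CPM in euthymic COX-negative libraries and 0.236, 0.116, 0.341 and 0.219 CPM in euthymic COX-positive Polg libraries, against 6.06, 2.303, 0.639 and 2.77 CPM in WT libraries. A single depressive COX-negative library was high.

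Single libraries carried much of the Hox RNA. The highest library held a median of 59.97% of a Hox gene's summed CPM, against 43.6% over all protein-coding genes, and more than 50% in 21 of 39 Hox genes (53.8%) against 40.5% of all. The median was 74.2% in HoxC, 72.1% in HoxD, 48.0% in HoxB and 44.0% in HoxA. The highest library also held more than 50% in 53.3% of Polycomb genes and 52.4% of hindbrain and spinal cord regulators. For cortical projection neuron markers this share was 66.7%. Genes beside or inside the clusters (16.7%) and TALE cofactors (0%) lay lower. Hox genes had a median count of 5, against 35 over all protein-coding genes. The part of low counts in these shares was not tested. The library with the highest value lay in each of the 5 groups for 6 to 10 Hox genes. Values of at least 1000 counts occurred 28 times, in 17 genes and 14 libraries, or 3.59% of values against 17.6% over all genes. Total Hox counts per library ranged from 312 to 26892. In the library with 21324 Hoxd13 counts, Hoxd13 made up 87.4% of all Hox counts.

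Some neighbouring genes had nearly the same counts in the same library. In 1 depressive COX-negative Polg library, Hoxd3 and Hoxd4 had 7106 and 7087 counts, and their annotated spans overlap by 7183 bases. In 1 euthymic COX-positive Polg library, Hoxa3 and Hoxa6 had 3695 and 3665 counts, with 3815 bases of overlap, and the antisense gene Hoxaas3 had 3693. Hoxa3 and Hoxaas3 were within 5% of each other in 10 of the 13 libraries where both had at least 100 counts. In 1 euthymic COX-positive Polg library, Hoxb6 and Hoxb5os had 3665 and 3666 counts. In 1 WT library Hoxc5 and Hoxc6 had 8624 and 8562 counts, although their spans do not overlap. Values of these genes cannot be counted as separate, because whether counting used strand or shared reads is not given in the sources used here.

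**Figure D4:**
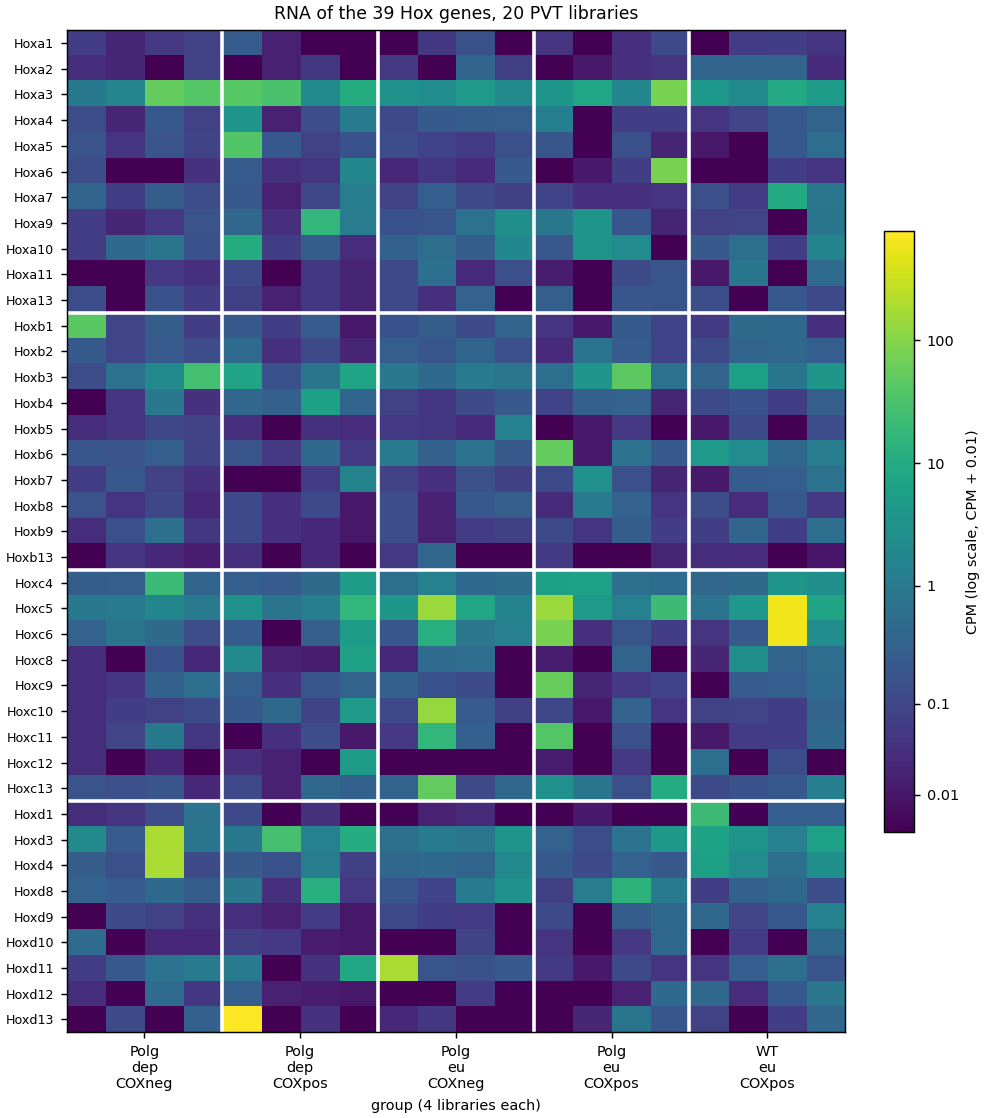
RNA of the 39 Hox genes (rows, by cluster and paralog number) in the 20 PVT libraries (columns, 4 per group), as CPM on a log colour scale after adding 0.01. Most cells are dark, and isolated bright cells stand in single libraries, such as Hoxd13 at 780 CPM in 1 depressive COX-positive library and Hoxc5 and Hoxc6 in 1 WT library.

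In the edgeR fit a single Hox gene passed a test of RNA between groups. Hoxc13, known for its role in hair and nails, fell in depressive against euthymic Polg, averaged over the COX classes. It had 0.165, 0.144, 0.188 and 0.0263 CPM in depressive COX-negative and 0.110, 0.0181, 0.433 and 0.314 CPM in depressive COX-positive libraries. Euthymic COX-negative libraries had 0.352, 52.0, 0.121 and 0.447 CPM and euthymic COX-positive ones 3.003, 0.774, 0.143 and 10.2 CPM. WT libraries had 0.115, 0.158, 0.213 and 1.21 CPM. The state groups overlapped, and 8 of 8 depressive libraries lay below the median of the euthymic ones. The log2 difference was −5.32 (SE 1.35, edgeR quasi-likelihood adjusted p = 0.0485). Of all 28446 genes, edgeR called 1.24% in this contrast, and 1 of 29 tested Hox genes was called, which is near that share.

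The Hoxc13 call was lost in most fits that left out a library. Without the euthymic COX-negative library at 52.0 CPM, the log2 difference was −2.60 (edgeR adjusted p = 0.158). edgeR kept the call in 2 of 20 fits that each left out 1 library, with adjusted p from 0.0449 to 0.158, and both of those fits left out a WT library. Within COX-negative libraries the log2 difference was −6.65 (SE 2.03, edgeR adjusted p = 0.0862), and within COX-positive ones −3.98 (SE 1.78, edgeR adjusted p = 0.242). The call was also lost with total counts in place of TMM (log2 −5.42, edgeR adjusted p = 0.0719) and with only the depressive and euthymic Polg groups in the model (log2 −5.32, edgeR adjusted p = 0.0718). limma's voom with quality weights gave −3.01 (adjusted p = 0.999). The call was kept in edgeR with DESeq2 size factors (adjusted p = 0.0416), with no filter (adjusted p = 0.0217) and with a stricter filter (adjusted p = 0.0455). It was also kept in edgeR with genes over 1% of a library left out (adjusted p = 0.0446), and in DESeq2 (adjusted p = 5.68e-05).

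In the same contrast, 1 astrocyte marker and 1 oligodendrocyte marker were called as well. edgeR called 1 of 7 tested astrocyte markers (S100b, a calcium-binding protein, log2 5.24, adjusted p = 0.0491) and 1 of 8 tested markers of oligodendrocytes and their precursors (Olig2, a lineage transcription factor, log2 6.68, adjusted p = 0.0485). Of all genes, edgeR called 1.24% in this contrast. S100b had a mean of 21.7 ± 47.8 CPM in depressive and 0.149 ± 0.212 CPM in euthymic Polg (SD, n = 8 each). Olig2 had 17.0 ± 47.7 CPM and 0.0216 ± 0.0322 CPM. For both genes the SD of the depressive libraries exceeded their mean. Above the euthymic median lay 6 of 8 depressive libraries for S100b and 7 of 8 for Olig2. The 7 astrocyte markers summed to 85.1 to 614.5 CPM (median 173.6) in depressive and 65.8 to 875.1 CPM (median 170.0) in euthymic Polg libraries. Their median log2 difference was −0.076, and Aldoc was at 0 in some libraries of each state. The 9 oligodendrocyte markers summed to 19.6 to 185.7 CPM (median 115.2) in depressive and 7.83 to 226.3 CPM (median 86.7) in euthymic Polg libraries. The median log2 difference of the 8 tested ones was 0.31. Olig1 and Olig2 were at 0 in some libraries of each state and Sox10 in some depressive ones. The 6 microglia markers, none of which was called, summed to 55.9 to 359.4 CPM (median 162.2) in depressive and 24.7 to 96.9 CPM (median 59.7) in euthymic Polg libraries. Their median log2 difference was 2.20, with Aif1 at 0 in some depressive and Tmem119 in some euthymic libraries. The 4 GABA neuron markers, none of which was called, summed to 3.004 to 108.9 CPM (median 6.92) in depressive and 4.55 to 174.6 CPM (median 56.7) in euthymic Polg libraries. Their median log2 difference was −2.31, with Slc32a1 at 0 in some libraries of each and Dlx1 in some euthymic ones. The part of these cell types in the Hoxc13 result was not tested. The 8 neuron markers summed to 368.3 to 1627 CPM in depressive, 314.7 to 2548 CPM in euthymic Polg and 168.8 to 1655 CPM in WT libraries, and 7 of the 8 had a count in every library. In bulk samples, fewer cells of a type and less RNA per cell cannot be told apart.

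No other Hox gene passed the edgeR test in any RNA contrast. edgeR called 0 of 29 tested Hox genes in Polg against WT within euthymic COX-positive libraries, in COX-negative against COX-positive within euthymic Polg and within depressive Polg, and in depressive against euthymic Polg within each COX class. The background share was 0% in all 5. At an unadjusted p under 0.05, edgeR passed 4 of 29 Hox genes in Polg against WT (all genes 15.3%), 5 in COX-negative against COX-positive euthymic Polg (21.2%), 8 in the same contrast in depressive Polg (19.9%), 9 in depressive against euthymic COX-positive Polg (17.5%), 7 in COX-negative Polg (22.6%) and 13 in the average over COX classes (22.2%). These contrasts share libraries, so their counts are not independent of each other. DESeq2, which gave an adjusted p for 11 to 22 Hox genes, called 1 in each of the 6 contrasts. These were Hoxa7 in Polg against WT (all genes 5.82%), Hoxb5 in the euthymic COX contrast (10.2%) and Hoxa9 in the depressive COX contrast (10.7%). Hoxc13 was called in depressive against euthymic COX-positive Polg (8.05%), COX-negative Polg (14.1%) and the average over both (10.3%). The test of whether the state difference depended on COX class called 0 Hox genes (background 0%), and its lowest adjusted p among them was 0.0534, for Hoxc10.

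Hoxa7, a trunk patterning gene, had the smallest p of the Hox genes in Polg against WT. It had 0.0883, 0.0347, 0.0359 and 0.0438 CPM in euthymic COX-positive Polg libraries and 0.150, 0.0631, 9.87 and 0.825 CPM in WT libraries. The groups overlapped and the WT value of 9.87 CPM stood far above the others. The log2 difference was −5.67 (SE 1.71, edgeR adjusted p = 0.197), and −2.72 without that WT library. Hoxa7 also had 0.363, 0.0718, 0.268 and 0.132 CPM in depressive COX-negative libraries, 0.2196, 0.0181, 0.105 and 1.14 CPM in depressive COX-positive libraries and 0.0812, 0.282, 0.121 and 0.0745 CPM in euthymic COX-negative libraries. Hoxd11, which acts in the forearm, had 184.9, 0.177, 0.151 and 0.224 CPM in euthymic COX-negative libraries and 0.0589, 0.0116, 0.108 and 0.0438 CPM in euthymic COX-positive ones. These groups did not overlap in TMM-scaled CPM. The log2 difference was 9.66 (SE 2.61, edgeR adjusted p = 0.123), and 1.68 without the library at 184.9 CPM. Hoxd11 also had 0.06597, 0.215, 0.724 and 1.05 CPM in depressive COX-negative libraries, 0.988, 0, 0.0394 and 8.602 CPM in depressive COX-positive libraries and 0.0461, 0.284, 0.568 and 0.178 CPM in WT libraries.

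Hoxd13, which acts in the digits, had 780.3, 0, 0.0394 and 0 CPM in depressive COX-positive libraries, against 0 to 0.303 CPM in the 4 depressive COX-negative ones and 0 to 0.753 CPM in the 4 euthymic COX-positive ones. Hoxd13 had 0, 0.1196, 0 and 0.303 CPM in depressive COX-negative libraries and 0.0271, 0.05296, 0 and 0 CPM in euthymic COX-negative libraries. It had 0, 0.0231, 0.753 and 0.197 CPM in euthymic COX-positive Polg libraries and 0.0807, 0, 0.071 and 0.403 CPM in WT libraries. The highest depressive COX-positive library stood alone. COX-negative minus COX-positive in depressive Polg was −10.77 on the log2 scale (SE 3.01, edgeR adjusted p = 0.132), and it was 2.92 without that library. Depressive minus euthymic in COX-positive Polg was 9.64 (SE 2.89, edgeR adjusted p = 0.136), and −3.83 without it. Hoxc10, which acts at the lumbar level, had 0.03298, 0.0718, 0.0805 and 0.119 CPM in depressive COX-negative libraries and 0.108, 131.9, 0.241 and 0.0745 CPM in euthymic COX-negative ones. The log2 difference was −8.70 (SE 2.35, edgeR adjusted p = 0.0862), and −0.88 without the library at 131.9 CPM. The groups overlapped. Hoxc10 also had 0.2196, 0.416, 0.0919 and 4.21 CPM in depressive COX-positive libraries, 0.103, 0.0116, 0.341 and 0.0438 CPM in euthymic COX-positive Polg libraries and 0.0807, 0.0946, 0.071 and 0.365 CPM in WT libraries.

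**Figure D5:**
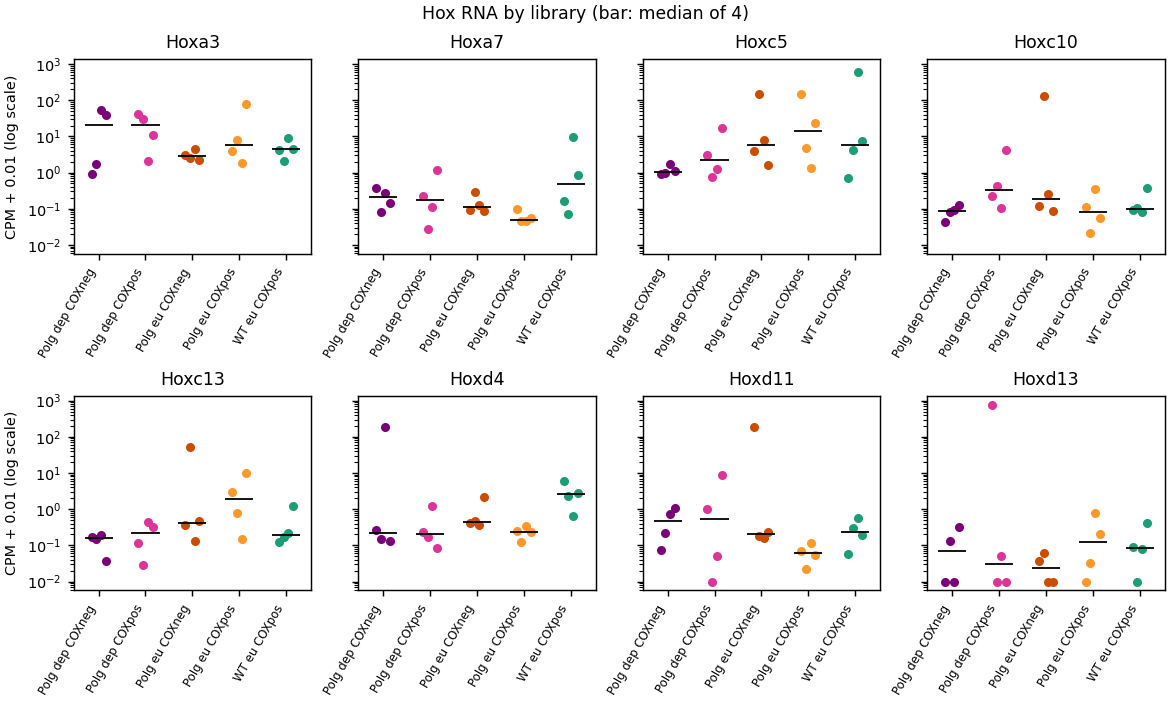
CPM plus 0.01 (y axis, log scale) of 8 Hox genes in the 20 PVT libraries by group (x axis, 4 libraries each, bars are medians). Hoxd13 has 1 depressive COX-positive library at 780 CPM with the other libraries of that group at or below 0.0394 CPM, and Hoxc13 has 1 euthymic COX-negative library at 52.0 CPM.

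Of the 29 tested Hox genes, 1 was without overlap between groups in Polg against WT and 2 in the euthymic COX contrast. The depressive COX contrast had 0, where 2.16% of all genes did not overlap. These counts are too small to set Hox genes apart from all genes. Hoxd4 lay lower in every euthymic COX-positive Polg library (0.116 to 0.341 CPM) than in every WT library (0.639 to 6.06 CPM), where 2.66% of all genes did not overlap. Hoxd4, together with Hoxd11, lay higher in every euthymic COX-negative library (0.362 to 2.16 CPM for Hoxd4) than in every euthymic COX-positive Polg library, where 3.06% of all genes did not overlap. For depressive against euthymic Polg no Hox gene was without overlap in either COX class, with 1.99% and 2.48% of all genes in COX-positive and COX-negative libraries. Hoxd4 did not pass the edgeR test in these contrasts. All of these comparisons used TMM-scaled CPM and were not repeated on total counts. The WT library with Hoxd4 at 0.639 CPM had a TMM factor of 0.323. The euthymic COX-negative library with Hoxd4 at 2.16 CPM and Hoxd11 at 0.224 CPM had a factor of 0.126. How far the lack of overlap depends on this scaling was not tested.

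Genes that work beside or upon the clusters gave few calls. In depressive against euthymic Polg averaged over COX classes, edgeR called 1.24% of all genes, and 1 of 20 tested genes beside or inside the clusters, Hottip, a long non-coding RNA at the end of HoxA known from human cells to act on that cluster. Hottip had a mean of 0.0193 ± 0.0188 CPM in depressive Polg and 1.47 ± 2.60 CPM in euthymic Polg (SD, n = 8 each), with 8 of 8 depressive libraries below the euthymic median (log2 −6.05, SE 1.45, edgeR adjusted p = 0.0485). It called 1 of 28 tested Polycomb genes, Cbx8, a chromodomain protein of the Polycomb repressive complex that reads H3K27me3, with a mean of 2.52 ± 6.24 CPM in depressive and 0.0532 ± 0.0572 CPM in euthymic Polg (SD, n = 8 each; log2 5.19, SE 1.32, edgeR adjusted p = 0.0491). Of the depressive libraries, 5 of 8 lay above the euthymic median of Cbx8 and 3 below. It called 0 of 8 TALE cofactors, 0 of 13 COMPASS and H3K27 demethylase genes, 0 of 15 hindbrain and spinal cord regulators and 0 of 20 forebrain regulators there. In the other 5 contrasts these lists had 0 calls, as did all genes (0%). Chromatin peaks at the start windows of these lists had 0 calls between Polg and WT in every table.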

How the data were processed

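RNA was counted per gene in 20 PVT libraries, H3K27ac per peak in 16 libraries and ATAC-seq per peak in 4. All values used are raw counts as deposited. The build mm10 and the tools STAR, featureCounts, Subread, HOMER and DESeq2 are listed in the submitters' processing notes without roles. Whether counting used exons or strand, and how duplicates and peak thresholds were handled, is not given in the sources used here. Peaks of a table are shared by its libraries. 4 input libraries that mixed genotypes were not used.

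Total counts ranged from 26719334 to 115285349 for RNA, from 2932270 to 8040451 for ATAC-seq, and for H3K27ac from 52759552 to 146450422 in PVT, from 52566179 to 197650530 in COR, from 12048787 to 101443484 in CP and from 6415127 to 80516545 in NAC. Low Hox counts limit precision. Use of molecular identifiers is not given in the sources used here, and intervals cover counting error only. CPM used TMM-scaled library sizes, whose RNA factors ranged from 0.126 to 3.91.

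edgeR 4.0.16 (R 4.3.3) quasi-likelihood tests, 2-sided with TMM, its low-count filter, robust dispersion and Benjamini-Hochberg adjustment over all genes or peaks, were the main tests at an adjusted p under 0.05. The 20 RNA libraries entered 1 model (15 residual degrees of freedom, 28446 genes). Each chromatin table was fitted alone. DESeq2 1.42.0, limma 3.58.1 voom, other scalings and filters, other spans and each library left out were alternatives. The fits were also run on simulated counts with known changes. For the chromatin tables these counts had less spread between libraries than the real ones, so they do not show what could be detected there. Gene names matched 53620 of 53715 identifiers, and gene positions came from RefSeq (GRCm38.p6, which is mm10). The members, the gene lists and the tests were chosen with earlier results of these data known. Named genes are the 2 of highest median per kb and the 1 of highest single value per cluster, and the 1 of smallest p per contrast or any that passed.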

Additional observations from a re-analysis of the deposited data

Results flagged for a closer look

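In the 14 Hox genes named above, with 5 groups of 4 libraries each, 7 of 70 groups held a library whose gap to its nearest neighbour, on the log2 scale of CPM with a prior count of 2, was larger as a share of the group's range than Dixon's 95% limit for 4 values. On linear CPM it was 27 of 70. Chance flags about 1 in 20 groups, but these genes were chosen partly for high single values, so their count cannot be set against that rate. The highest value was 780 CPM of Hoxd13 in the depressive COX-positive group, with 0.0394 CPM in the next library. Hoxd4 had 190 CPM in a depressive COX-negative library, with 0.264 CPM in the next, and 2.16 CPM in a euthymic COX-negative library, with 0.459 CPM in the next. Hoxd11 had 185 CPM in a euthymic COX-negative library, with 0.224 CPM in the next. Hoxc10 had 132 CPM in a euthymic COX-negative library, with 0.241 CPM in the next, and 0.365 CPM in a WT library, with 0.0946 CPM in the next. Hoxc4 had 21.6 CPM in a depressive COX-negative library, with 0.369 CPM in the next.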

How the results depend on the processing

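Of 249 recomputed counts, 211 stayed within 1.5 times the main value. The other 38 are given here. The average of depressive against euthymic Polg over COX classes had 1 called Hox gene, 0 with total counts only, with voom and with only the groups of the contrast, 2 with DESeq2 size factors (Hoxc11 and Hoxc13) and 4 with no filter (with Hoxc5 and Hoxd13), and from 0 to 1 when 1 library was left out. With no filter, COX-negative against COX-positive euthymic Polg had 1 (Hoxd11) and depressive against euthymic COX-negative Polg had 1 (Hoxc10). DESeq2 gave 1 in Polg against WT and in each of the within-class contrasts. DESeq2 called 6 COR peaks. The number of Hox peaks was 1 in COR (2 in at least 2 libraries), 0 in CP (1) and 0 in NAC when a count in all 4 libraries was required, an alternative chosen after seeing the data, 5 in NAC with a 20 kb extension, and 0 for ATAC-seq with a mean of at least 30 counts. When 1 library was left out, some log2 differences changed sign. Hoxd13 ranged from −11.43 to 2.92 between COX classes in depressive Polg and from −3.83 to 11.36 between states in COX-positive Polg. The Hoxa7 to Hoxa9 peak ranged from −0.42 to 0.59 in PVT H3K27ac and from −0.80 to 0.34 in ATAC-seq. The CP peak in Hoxd3 and Hoxd4 ranged from −12.98 to 8.603, the NAC Hoxb3 peak from −7.82 to 8.46 and the ATAC-seq Hoxd3 peak from −0.068 to 2.76. The cause was not tested. Replicate numbers of the chromatin tables are not stated to mark a shared animal or day. Deviations of same-numbered libraries correlated at −0.051 to 0.017. With 2 libraries per group this cannot show whether libraries were paired. With the replicate number as a block, 0 Hox peaks were called in every table. Over all peaks the block gave 0, 10, 1, 2 and 2 calls in PVT, COR, CP, NAC and ATAC-seq, against 0, 0, 0, 5 and 1 without it. No paired analysis was possible for RNA because its columns carry no replicate number. The test between regions, with its other settings, could not be run because no Hox gene had a gene-end peak in all 4 tables, also with 5 kb windows, where 9750 genes had one. Shallow libraries limit the low Hox counts, and 2 libraries per chromatin group limit its tests.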
